A study of Mus musculus with 51 samples.

Results

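The MOR244 family consists of 3 olfactory receptor (OR) genes, *Olfr1507*, *Olfr1508* and *Olfr1509*, which were taken by their gene symbols from the count tables. All 3 were present among the 1117 OR genes counted. The data are pS6-IP-Seq libraries, in which an antibody against phosphorylated ribosomal protein S6 pulls down ribosomes, with the mRNA bound to them, from recently active cells. The 51 libraries came from the olfactory mucosa of C57BL/6J mice, about 3 weeks old and of both sexes, with 30 libraries in 10 odor groups and 21 in 7 control groups, and 3 in every group.

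Odor-exposed mice received 1 of the following odorants for 1 hr. These were (methylthio)methanethiol (MTMT), a thiol of male mouse urine, at 100 μM and 10 mM; 2-sec-butyl-4,5-dihydrothiazole (SBT), another male semiochemical, at 0.01%, 1% and 100%; undiluted (E)-β-farnesene; 1% 2,5-dimethylpyrazine (2,5-DMP); 77% 3,4-dehydro-exo-brevicomin (DHB); 1% β-caryophyllene; and 100 mM of the musk cyclopentadecanone (CPD). Control mice received diluent alone. MTMT and CPD were diluted in ethanol and the other diluted odorants in water. SBT at 100% was undiluted, and the labels do not name the diluent of any control mouse. A single set of 3 control mice served for (E)-β-farnesene, for 2,5-DMP and for 100 μM MTMT, so that in at least 1 of these comparisons odor and diluent cannot be told apart. The 1% and 100% SBT mice shared another 3 controls. The tables hold OR genes only, so the tissue could not be checked against markers of other cell types.

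Each olfactory sensory neuron (OSN) expresses a single OR gene, and an OSN that detects an odorant phosphorylates S6, so that its OR transcript is enriched in the precipitate. *Olfr1507* (MOR28), *Olfr1508* (MOR10) and *Olfr1509* (MOR83) belong to the MOR28 cluster, whose expression depends on a nearby enhancer, the H element. *Olfr1509*, also known as MOR244-3, is the receptor that responds to MTMT in transfected cells, and it does so far better when copper is present. The question put to the data is therefore whether *Olfr1509*, or either of its relatives, gained reads in mice exposed to MTMT or to any of the other odorants.

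The 3 genes lie side by side on mouse chromosome 14 (GRCm38, GENCODE M21 gene models). *Olfr1509* (ENSMUSG00000035626) spans chr14:52442990-52452574 on the plus strand. *Olfr1508* (ENSMUSG00000057564) follows at chr14:52458829-52467495 and *Olfr1507* (ENSMUSG00000059887) at chr14:52488791-52495749, both on the minus strand. The gap between *Olfr1509* and *Olfr1508* is 6254 bases and that between *Olfr1508* and *Olfr1507* is 21295 bases. No gene of the family overlaps another. Their coding sequences encode receptors of 313 (*Olfr1507*), 310 (*Olfr1508*) and 308 (*Olfr1509*) residues.

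**Figure D1:**
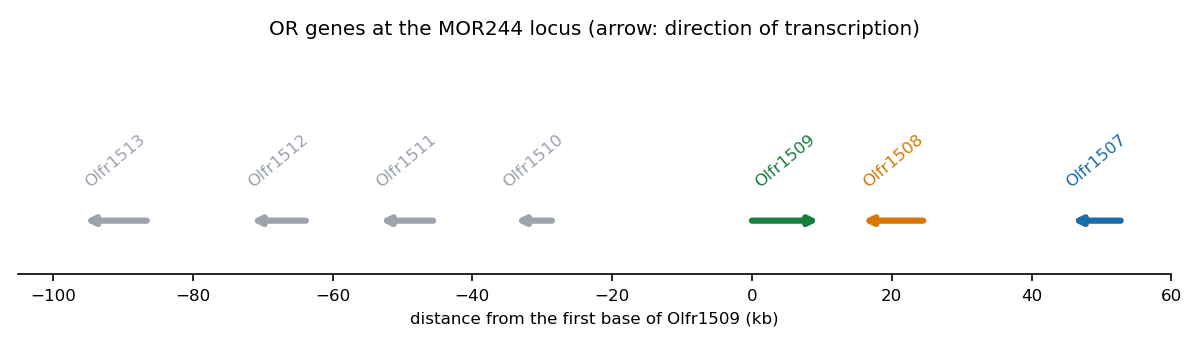
OR genes at the MOR244 locus, drawn to scale as the distance in kb from the first base of *Olfr1509*, with arrows in the direction of transcription. The 3 MOR244 genes are coloured and 4 of the 5 other OR genes within 500 kb are grey; *Olfr221*, 400.5 kb away, is not drawn.

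*Olfr1507* and *Olfr1508* are close copies of each other, and *Olfr1509* is more distant. Over an alignment of 939 bases, the coding sequences of *Olfr1507* and *Olfr1508* were 92.2% identical, whereas those of *Olfr1509* and either relative were 65.2% and 65.4% identical. Identity between the conceptual translations was 88.2% for *Olfr1507* and *Olfr1508*, 61.3% for *Olfr1507* and *Olfr1509*, and 63.7% for *Olfr1508* and *Olfr1509*. By the same measure none of 1110 other ORs came as near to a member as the members came to each other. The nearest were *Olfr728* to *Olfr1507* (52.2%), *Olfr142* to *Olfr1508* (53.1%) and *Olfr1274* to *Olfr1509* (58.0%).

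A copper-binding site has been modelled in *Olfr1509* from a histidine and a cysteine of the third transmembrane helix, and the stretch that encodes them is shown because it is the feature of the family tied to MTMT. The stretches below are the 54 coding bases around these codons on the coding strand, read 5′ to 3′ from the GRCm38 genome sequence, with the histidine codon and the cysteine codon in capitals.
Olfr1509: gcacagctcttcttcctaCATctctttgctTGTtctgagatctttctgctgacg
Olfr1508: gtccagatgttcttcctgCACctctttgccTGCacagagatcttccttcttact
Olfr1507: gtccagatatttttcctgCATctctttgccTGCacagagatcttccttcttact
They lie at chr14:52450709-52450762 (*Olfr1509*), chr14:52463651-52463704 (*Olfr1508*) and chr14:52490606-52490659 (*Olfr1507*). The codons are numbers 105 and 109 of *Olfr1509*, and 108 and 112 of both relatives. All 3 genes carry a histidine codon followed 4 codons later by a cysteine codon. *Olfr1507* and *Olfr1508* differed at 3 of the 54 bases, and *Olfr1509* differed from each of them at 14.

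Among 875 ORs whose translation holds the DRY motif of the third transmembrane helix's end, 27.9% had a histidine 16 residues before it, 6.17% had a cysteine 12 residues before it, and 2.29% had both. These 20 ORs were the 3 MOR244 genes and 17 others, of which 14 had enough reads to be tested at each MTMT dose.

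The similarity of *Olfr1507* and *Olfr1508* bears on how well their reads can be separated. Their exons share 167 stretches of 50 bases, which is 6.04% of such stretches in *Olfr1507* and 2.95% in *Olfr1508*. *Olfr1507* shares 5 further stretches with other ORs, and *Olfr1509* shares none with any OR of the tables. The longest run common to the coding sequences of *Olfr1507* and *Olfr1508* has 143 bases and is shown because reads within it fit both genes equally.
Shared run: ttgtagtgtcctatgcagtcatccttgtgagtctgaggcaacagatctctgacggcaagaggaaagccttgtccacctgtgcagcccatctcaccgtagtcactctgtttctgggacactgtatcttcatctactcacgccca
It is found at chr14:52490171-52490313 in *Olfr1507* and at chr14:52463216-52463358 in *Olfr1508*, on the minus strand. How the reads of such stretches were divided between *Olfr1507* and *Olfr1508* rests on the estimation step that made the counts, which leaves the separate levels of these genes less certain than that of *Olfr1509*.

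The libraries held 27301 to 160001 OR reads (median 93870), and the share of OR reads, in percent, is used as the level of a gene. A level counts transcripts in the precipitate, so that fewer OSNs of a type and less captured RNA per OSN cannot be told apart. Exact 95% binomial intervals, which cover counting error only, had a median half-width over the libraries of 10.3% of the share itself for *Olfr1507*, 20.1% for *Olfr1508* and 15.6% for *Olfr1509*. All 51 pairs of libraries within a group differed by more than counting noise (chi-squared per degree of freedom 4.92 to 25.5), so that the spread between mice was used as the error throughout. Libraries also stood apart from their groups. *Olfr1295*, the receptor taken here as a reference responder to MTMT, took 0.432% in replicate 2 of the CPD group against 0.0858% and 0.101% in the other CPD libraries, and only 0.0876% in replicate 1 of the 10 mM MTMT group against 0.424% and 0.491% in the others. Both libraries carry the same title prefix, as do the other libraries of replicates 1 and 2 in both experiments, controls included. Whether the labels of these libraries are right was not tested. The edgeR fold changes, mean levels and CPD ratios of the members that rest on either library are therefore given with and without it. Differences within title prefixes are given with both libraries only.

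In control mice the 3 genes differed in level, with *Olfr1507* highest. *Olfr1507* took 0.483% ± 0.145 of OR reads (SD, n = 21 control libraries), which placed it at rank 27 of 1117 ORs. *Olfr1509* took 0.212% ± 0.0669 (rank 106) and *Olfr1508* 0.135% ± 0.0503 (rank 187). Per kb of exon the order was the same, at 0.168% ± 0.0504 for *Olfr1507*, 0.0823% ± 0.026 for *Olfr1509* and 0.0233% ± 0.00869 for *Olfr1508*. Per kb of coding sequence the levels were 0.514%, 0.23% and 0.145%. Over all 51 libraries *Olfr1507* ranged from 0.1% to 1.62%, *Olfr1508* from 0.016% to 0.245% and *Olfr1509* from 0.0815% to 0.368%.

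Ordered by their means, neighbouring groups mostly overlapped for each of the genes. Such an ordering favours overlap of neighbours for any gene, and the share over all ORs was not counted. The ranges of neighbouring groups overlapped in 16 of 16 pairs for *Olfr1507*, 16 of 16 for *Olfr1508* and 15 of 16 for *Olfr1509*. For *Olfr1507* the order ran from 10 mM MTMT (mean 0.868%), CPD (0.821%) and 100 μM MTMT (0.712%) down to 0.01% SBT (0.321%), 1% SBT (0.294%) and β-caryophyllene (0.254%). Without the doubtful libraries the *Olfr1507* means were 1.1% at 10 mM MTMT and 0.59% with CPD. The control groups of *Olfr1507* themselves lay between 0.338% and 0.706%. For *Olfr1508* the highest mean was that of the 1% and 100% SBT controls (0.188%), and the lowest were both groups of the 0.01% SBT experiment, the controls (0.0653%) and the exposed mice (0.0604%). For *Olfr1509* the order ran from the β-caryophyllene controls (0.248%) and 10 mM MTMT (0.246%) down to 1% SBT (0.145%) and 100% SBT (0.106%), with 0.286% at 10 mM MTMT without its doubtful library. The last pair is the one whose ranges did not overlap, with 0.124% to 0.177% at 1% SBT and 0.0909% to 0.122% at 100% SBT.

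**Figure D2:**
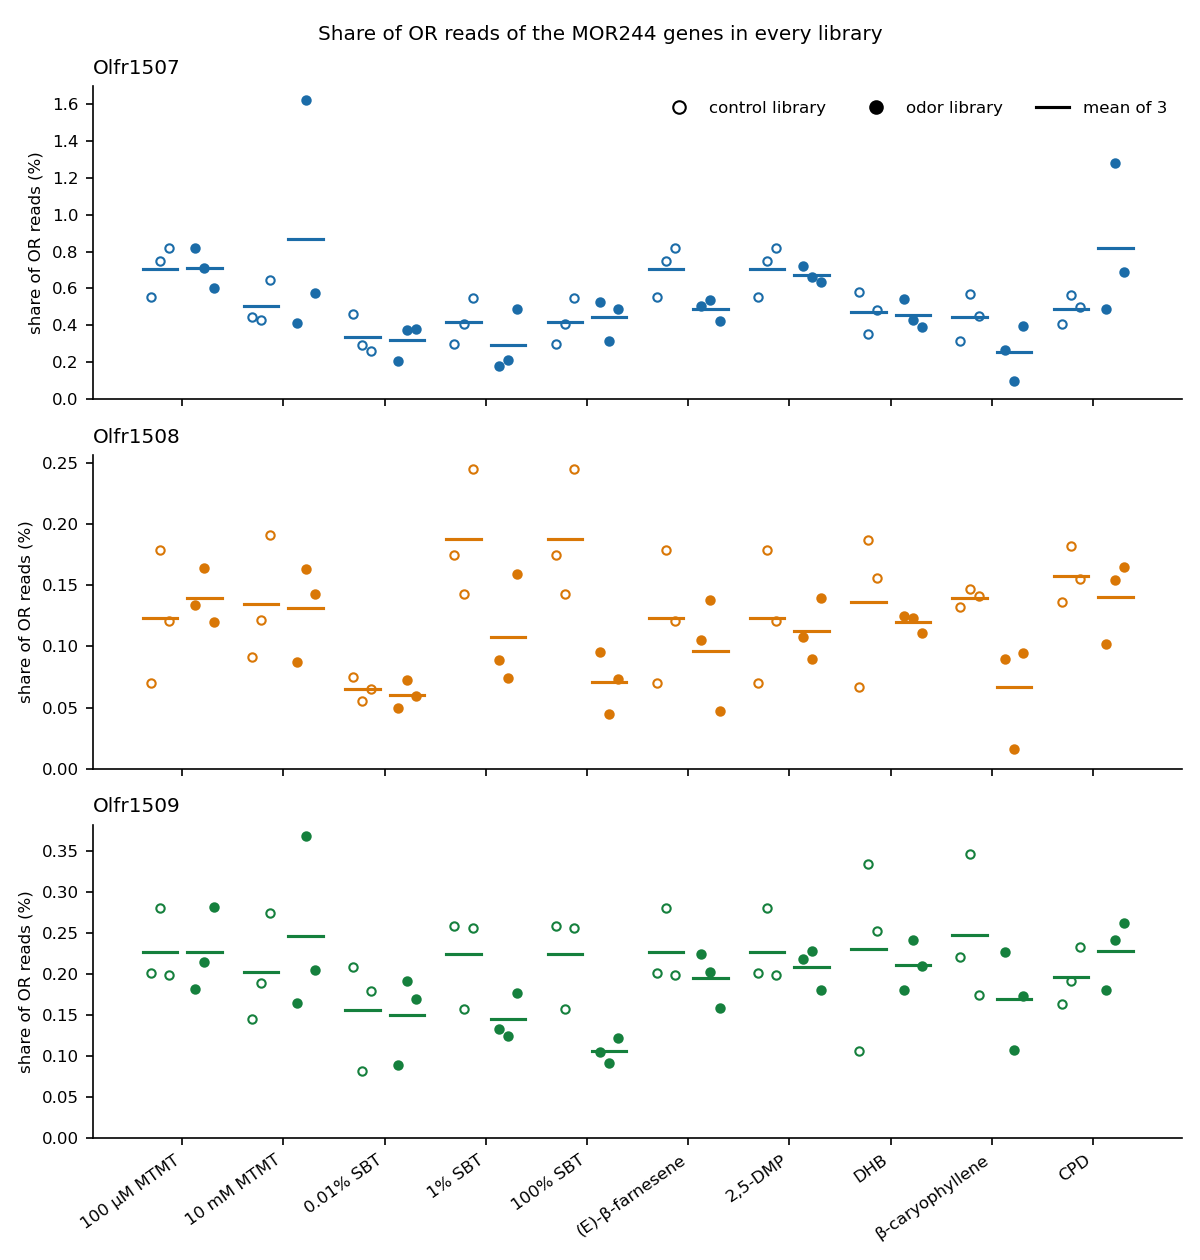
Share of OR reads (%, y axis) of *Olfr1507*, *Olfr1508* and *Olfr1509* in each library, by odor (x axis), with open circles for control libraries, filled circles for odor libraries and lines for the mean of 3. Controls shared by several odors are drawn at each of them. *Olfr1509* lies below all its controls at 100% SBT (0.0909% to 0.122% against 0.157% to 0.259%), and at 100 μM MTMT its libraries (0.182% to 0.282%) overlap the controls (0.199% to 0.28%).

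At 100 μM MTMT, *Olfr1509* did not differ measurably from the controls. It took 0.182%, 0.215% and 0.282% of OR reads in the exposed mice and 0.201%, 0.28% and 0.199% in the controls. The groups overlapped entirely, with means of 0.226% and 0.227%. The log2 fold change was -0.03 ± 0.24 (SE; edgeR quasi-likelihood test, adjusted p = 0.984, n = 3 and 3), with a 95% confidence interval from -0.53 to 0.47, that is, from 0.694-fold to 1.38-fold.

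*Olfr1507* and *Olfr1508* gave the same picture at 100 μM. *Olfr1507* took 0.821%, 0.713% and 0.603% in exposed mice and 0.556%, 0.746% and 0.817% in controls, which overlapped (log2 fold change -0.02 ± 0.26, interval -0.57 to 0.53). *Olfr1508* took 0.134%, 0.164% and 0.12% against 0.0704%, 0.179% and 0.121%, again with overlap (log2 fold change 0.14 ± 0.26, interval -0.41 to 0.68). None of the 3 genes passed the test, where 0.281% of the 1068 ORs tested did (3, and 1 without replicate 2 of the exposed mice). In the same libraries *Olfr1295* took 0.202%, 0.358% and 0.228% against 0.0831%, 0.076% and 0.0826%, with every exposed library above every control (log2 fold change 1.69 ± 0.26, edgeR adjusted p = 0.00204). The paper named *Olfr1295* from this same 100 μM experiment, where it had the lowest FDR, and also by pS6 staining. Its rise in these libraries was therefore known beforehand and is no independent check.

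The controls of this comparison were shared, so that the 100 μM MTMT mice were also set against the mice given (E)-β-farnesene or 2,5-DMP in the same experiment, which leaves the controls out. MTMT was diluted in ethanol and these odorants were not, so that odor and diluent cannot be told apart in this contrast. *Olfr1509* differed from the mean of both groups by a log2 fold change of 0.14 ± 0.21 (interval -0.29 to 0.56), *Olfr1507* by 0.27 ± 0.20 and *Olfr1508* by 0.39 ± 0.26 (edgeR adjusted p = 0.97, 0.877 and 0.827). None passed, where 1.95% of 1078 ORs did. *Olfr1295*, named by the paper from the same MTMT libraries, differed by 1.32 ± 0.21 (edgeR adjusted p = 0.000614).

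At 10 mM MTMT a single mouse carried most of the difference. *Olfr1509* took 0.165%, 0.368% and 0.205% in the exposed mice and 0.145%, 0.189% and 0.274% in the controls. Replicate 2 was the highest *Olfr1509* value of all 51 libraries, and the other exposed libraries lay within the controls. *Olfr1507* took 0.415%, 1.62% and 0.573% against 0.444%, 0.431% and 0.648%, with replicate 2 again the highest of all libraries. *Olfr1508* took 0.0876%, 0.163% and 0.143% against 0.0911%, 0.122% and 0.191%, with 1 exposed library just below the lowest control.

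The log2 fold changes at 10 mM were 1.18 ± 0.54 for *Olfr1507* (interval -0.04 to 2.39, adjusted p = 0.791), 0.36 ± 0.38 for *Olfr1508* (-0.48 to 1.2, adjusted p = 0.969) and 0.66 ± 0.40 for *Olfr1509* (-0.22 to 1.55, adjusted p = 0.898), all from edgeR's quasi-likelihood test with 3 mice a group. Without replicate 2 of the exposed mice the changes were 0.29, 0.13 and 0.19. Without replicate 1, whose *Olfr1295* level was that of a control, they were 1.56, 0.65 and 0.95, with adjusted p = 0.1, 0.7 and 0.278 in edgeR. The sample titles of this experiment carry 2 different prefixes, whose meaning the labels do not give. Within them the *Olfr1509* difference in mean log2 share was 0.57 in one (2 mice against 2) and -0.42 in the other (1 against 1). In edgeR's quasi-likelihood test 0.0% of 1054 ORs passed at this dose, although 69 had an unadjusted p under 0.05, DESeq2 called 15, and edgeR called 38 of 1043 without replicate 1 of the exposed mice. *Olfr1295*, the reference responder, did not pass here either (log2 fold change 1.74 ± 0.6, interval 0.4 to 3.07, edgeR adjusted p = 0.48). A missing call at 10 mM therefore does not show that a gene was unchanged. In replicate 3 of the exposed mice another receptor, *Olfr541*, took 9.79% of all OR reads, and its part in these shares was not tested.

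Between the doses of MTMT, 10 mM against 100 μM, the difference of the odor effects was 0.68 ± 0.48 on the log2 scale for *Olfr1509* (interval -0.33 to 1.68), 1.18 ± 0.60 for *Olfr1507* and 0.19 ± 0.49 for *Olfr1508* (edgeR adjusted p = 0.916, 0.857 and 1.0), where 0.0% of 1083 ORs passed, with 68 at an unadjusted p under 0.05 and 0 called by DESeq2. Without replicate 2 of the 10 mM mice the differences were 0.2, 0.28 and -0.04 for *Olfr1509*, *Olfr1507* and *Olfr1508*, and without replicate 1 they were 0.94, 1.54 and 0.46 (edgeR adjusted p = 0.491, 0.127 and 0.951).

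The other ORs with the histidine and the cysteine at these places gave no uniform picture. In edgeR's quasi-likelihood test 0 of 14 passed at 100 μM MTMT and 0 of 14 at 10 mM, where 0.281% and 0.0% of all ORs did. Their median log2 fold change was 0.18 at 100 μM (-0.01 over all ORs) and 0.83 at 10 mM (0.03 over all ORs). The median was also raised with 100% SBT, at 0.33 beside -0.08, where 1 of 14 passed (*Olfr1193*) and 11.3% of all ORs did.

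Without replicate 1 of the 10 mM mice, 4 of 13 passed (*Olfr1193*, *Olfr1199*, *Olfr1206* and *Olfr1209*, all on chromosome 2), where 3.64% of all 1043 ORs did. The median of the 13 was 0.91. The ORs with both residues also include *Olfr1183*, *Olfr1186*, *Olfr1201* and *Olfr1205* on chromosome 2, so that the 13 cannot be taken as unrelated receptors. Whether the calls go with the residues or with this chromosome 2 group was not tested. That library was set aside for its *Olfr1295* level, which is itself a response in this comparison, so that these calls are a description only. Without replicate 2 none of 14 passed and the median was 0.44. In 100 μM MTMT against the other odors of the experiment, described above, 1 of 15 passed (*Olfr1209*, log2 fold change 1.33, edgeR adjusted p = 0.0024). There, odor and diluent cannot be told apart.

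**Figure D3:**
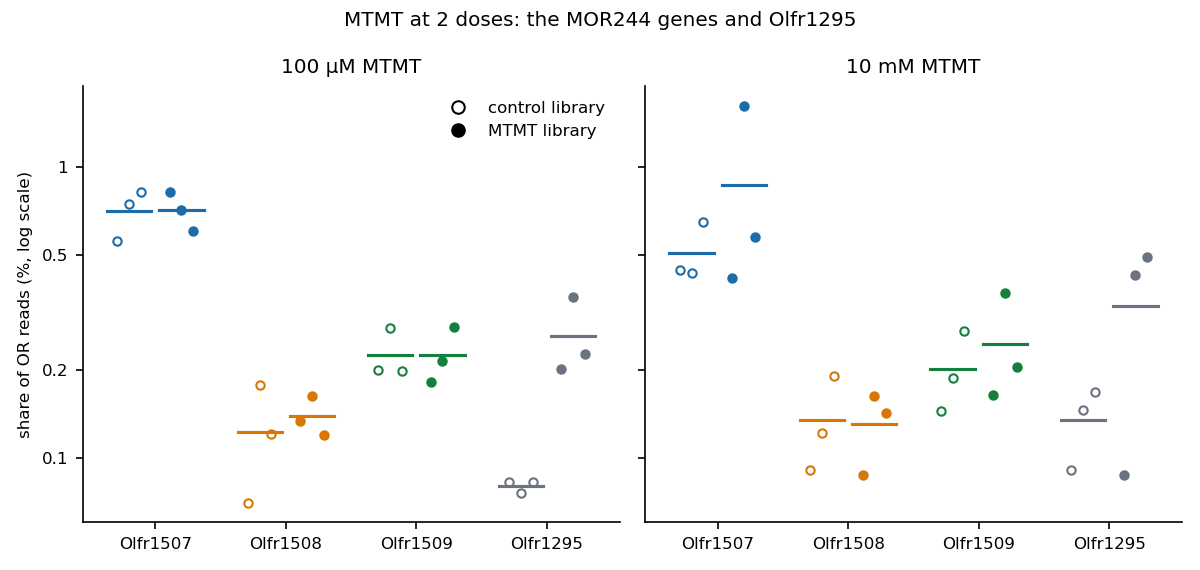
Share of OR reads (%, log scale) of the MOR244 genes and of *Olfr1295* in the libraries of 100 μM MTMT (left) and 10 mM MTMT (right), with open circles for controls, filled circles for exposed mice and lines for means of 3. *Olfr1295* separates from its controls at 100 μM (0.202% to 0.358% against 0.076% to 0.0831%), the MOR244 genes overlap with theirs, and at 10 mM 1 exposed library reaches 1.62% for *Olfr1507*.

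The clearest difference within the family was seen with 100% SBT, where *Olfr1508* and *Olfr1509* took smaller shares than in the controls and *Olfr1507* did not. *Olfr1508* took 0.0956%, 0.045% and 0.073% in exposed mice and 0.175%, 0.143% and 0.245% in controls. *Olfr1509* took 0.105%, 0.0909% and 0.122% against 0.259%, 0.157% and 0.256%. For both genes every exposed library lay below every control. *Olfr1507* took 0.528%, 0.318% and 0.49% against 0.298%, 0.408% and 0.549%, and the groups overlapped.

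A share below all controls was common at this dose, as 20.3% of the 1050 ORs tested were so placed. Many ORs rose with 100% SBT, and the 111 that passed the test upward took 13.9% to 15.1% of OR reads in the controls and 40.9% to 44.3% in the exposed mice, so that the remaining ORs shared a smaller part of the reads. The size of the difference therefore depended on how libraries were scaled. With TMM factors, which set the median OR near 0 (median log2 fold change -0.08), the log2 fold change was -0.99 ± 0.39 for *Olfr1508* (interval -1.83 to -0.15, unadjusted p = 0.024, adjusted p = 0.146), -0.69 ± 0.34 for *Olfr1509* (-1.42 to 0.04, adjusted p = 0.275) and 0.50 ± 0.31 for *Olfr1507* (-0.17 to 1.16, adjusted p = 0.418), all by edgeR. None of the 3 passed, where 11.3% of ORs did. With library totals in place of TMM the changes were -1.39, -1.08 and 0.09, and *Olfr1508* passed (edgeR adjusted p = 0.0348).

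The ratio of 2 genes within a library depends on neither scaling nor the share that other ORs take. It does depend on how reads of shared stretches were divided, which concerns *Olfr1507* and *Olfr1508*. The ratio of *Olfr1508* to *Olfr1507* reads was 0.182, 0.143 and 0.15 in the mice exposed to 100% SBT and 0.589, 0.353 and 0.449 in their controls. That of *Olfr1509* to *Olfr1507* was 0.2, 0.287 and 0.25 against 0.871, 0.388 and 0.468. Neither pair of groups overlapped, with log2 differences of -1.53 ± 0.24 and -1.15 ± 0.38 (SE). Many ORs shifted at this dose, and how often other pairs of ORs separated in this way was not counted. *Olfr1509* to *Olfr1508* was 1.1, 2.01 and 1.66 against 1.48, 1.1 and 1.04, which overlapped (log2 difference 0.37 ± 0.30). The two-sided exact permutation p was 0.1 for each of the first 2 ratios, the smallest that 3 mice against 3 allow, and 0.75 after Benjamini-Hochberg adjustment over the 30 ratio comparisons (3 ratios by 10 odors).

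In the SBT experiment, too, the sample titles carry 2 prefixes. Within them the mean log2 share differed by -1.27 (2 mice against 2) and -1.75 (1 against 1) for *Olfr1508*, by -1.05 and -1.08 for *Olfr1509*, and by 0.23 and -0.17 for *Olfr1507*. The controls of this experiment had high ratios of *Olfr1508* to *Olfr1507* compared with most other controls. This ratio ranged from 0.116 to 0.588 over all 21 control libraries without an added constant, and from 0.164 to 0.252 in the controls of 0.01% SBT. For *Olfr1509* to *Olfr1507* the controls of 100% SBT (0.871, 0.388 and 0.468) compare with a median of 0.423 over all 21 control libraries. Set against all 21 controls, the 3 *Olfr1509* values at 100% SBT lay within the range, as did 2 of the 3 *Olfr1508* values.

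At the lower doses of SBT the family did not differ measurably from controls. At 1% SBT *Olfr1507* took 0.179%, 0.214% and 0.488%, *Olfr1508* 0.0893%, 0.0738% and 0.159%, and *Olfr1509* 0.133%, 0.124% and 0.177%, each overlapping the control values given above. The log2 fold changes were -0.37 ± 0.44, -0.65 ± 0.42 and -0.49 ± 0.38 (edgeR adjusted p = 0.994 for each). They depended on single mice. Without replicate 3 of the exposed mice, the highest for all 3 genes, they were -0.96, -1.05 and -0.67 (edgeR adjusted p = 0.545, 0.545 and 0.763), and without replicate 3 of the controls -0.11, -0.42 and -0.38. Of the 1043 ORs tested, 0.863% passed. In replicate 1 of the exposed mice *Olfr545* took 14.4% of OR reads, and its part in the other shares was not tested. In the libraries of 0.01% SBT the 3 genes differed from their own controls by -0.05 ± 0.31, -0.10 ± 0.30 and -0.05 ± 0.37 (edgeR adjusted p = 0.999 for each), where 0.466% of 1072 ORs passed.

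The dose difference, 100% against 1% SBT within the same experiment, was 0.88 ± 0.40 for *Olfr1507* (interval 0.03 to 1.72, unadjusted p = 0.0429, adjusted p = 0.276), -0.32 ± 0.43 for *Olfr1508* (adjusted p = 0.775) and -0.18 ± 0.36 for *Olfr1509* (adjusted p = 0.869) on the log2 scale, by edgeR, where 7.53% of 1063 ORs passed. Without replicate 3 of the 1% SBT mice, the highest *Olfr1507* value of that group, the *Olfr1507* difference was 1.41 and passed (edgeR adjusted p = 0.0316). Between 1% and 0.01% SBT the differences were -0.31 ± 0.56, -0.54 ± 0.53 and -0.43 ± 0.56 (edgeR adjusted p = 1.0 for each; -0.94 to -0.07, -0.99 to -0.28 and -0.72 to -0.11 when single libraries were left out), and 0.0% of 1082 ORs passed, with 48 at an unadjusted p under 0.05 and 1 called by DESeq2.

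**Figure D4:**
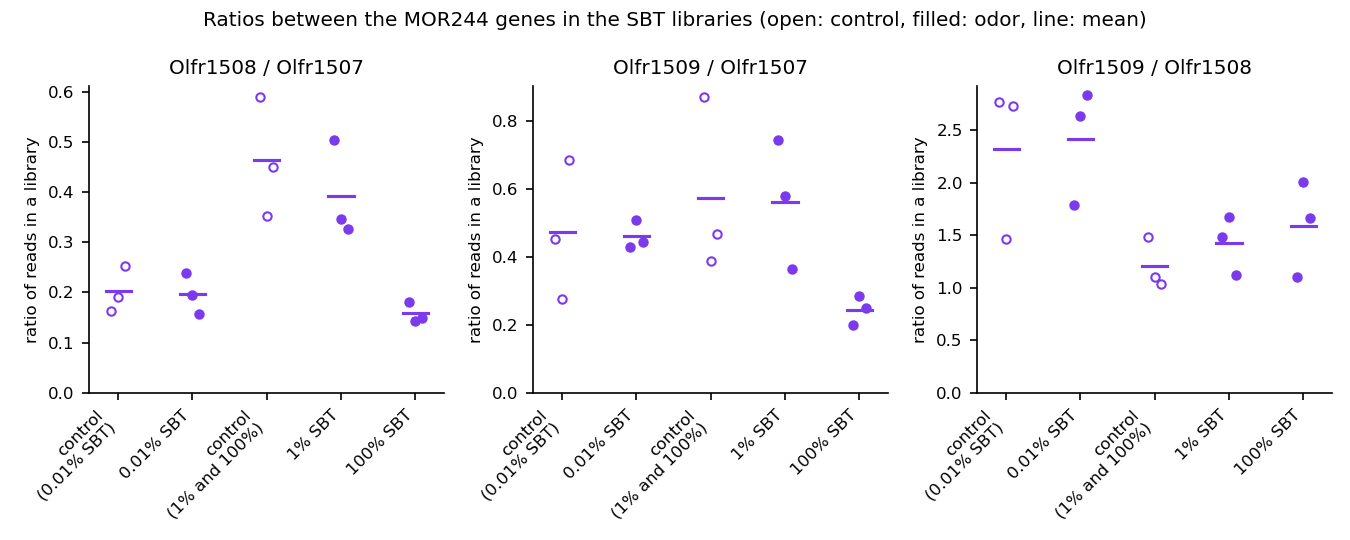
Ratios of reads between the MOR244 genes within each library (y axis, linear, 0.5 added to each count) for the SBT experiments (x axis), with open circles for controls, filled circles for exposed mice and lines for arithmetic means of 3. The ratio of *Olfr1508* to *Olfr1507* is 0.143 to 0.182 at 100% SBT and 0.353 to 0.589 in the controls of that experiment, and 0.164 to 0.252 in the controls of 0.01% SBT.

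With CPD, as with 10 mM MTMT, *Olfr1507* was high in 1 mouse. It took 0.491%, 1.28% and 0.689% in the exposed mice and 0.406%, 0.567% and 0.497% in the controls, with replicate 2 far above the rest. The log2 fold change was 0.93 ± 0.44 (interval -0.03 to 1.89, edgeR adjusted p = 0.993), and 0.29 without replicate 2, the library that also held the high *Olfr1295* level. Within the title prefixes it was higher by 0.73 (2 mice against 2) and 0.47 (1 against 1) in mean log2 share. *Olfr1508* took 0.102%, 0.154% and 0.165% against 0.136%, 0.182% and 0.155% (log2 fold change -0.03 ± 0.32), and *Olfr1509* 0.181%, 0.242% and 0.262% against 0.163%, 0.192% and 0.233% (0.35 ± 0.33). Without replicate 2 these changes were -0.21 and 0.19. The ratio of *Olfr1508* to *Olfr1507* was lower in all CPD mice than in all controls (log2 difference -0.83 ± 0.31) and that of *Olfr1509* to *Olfr1508* higher (0.41 ± 0.16), each with an exact permutation p of 0.1 and 0.75 after adjustment. Without replicate 2 the differences were -0.53 and 0.44. How often other pairs of ORs separated in this way with CPD was not counted. In the edgeR test 0.0% of 1050 ORs passed with CPD, with 40 at an unadjusted p under 0.05 and 1 called by DESeq2.

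With β-caryophyllene all 3 genes had lower means than in controls, and replicate 2 of the exposed mice was the lowest for each. *Olfr1508* took 0.0901%, 0.016% and 0.0945% against 0.132%, 0.147% and 0.141%, so that every exposed library lay below every control, as 7.92% of the 1048 ORs tested did. *Olfr1507* took 0.266%, 0.1% and 0.395% against 0.318%, 0.568% and 0.45%. *Olfr1509* took 0.227%, 0.107% and 0.173% against 0.221%, 0.347% and 0.175%. The last 2 genes overlapped their controls. The log2 fold changes were -1.02 ± 0.51 for *Olfr1508*, -0.77 ± 0.45 for *Olfr1507* and -0.50 ± 0.40 for *Olfr1509* (edgeR adjusted p = 0.905, 0.905 and 0.922), and -0.55, -0.39 and -0.25 without replicate 2. With β-caryophyllene 0.0% of ORs passed the edgeR test, 51 had an unadjusted p under 0.05, and DESeq2 called 0.

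(E)-β-farnesene, 2,5-DMP and DHB gave smaller differences. With (E)-β-farnesene, *Olfr1507* took 0.507%, 0.54% and 0.424%, below each of the shared controls (0.556% to 0.817%), as 5.42% of the 1071 ORs tested were. Its log2 fold change was -0.48 ± 0.26 (interval -1.02 to 0.06, edgeR adjusted p = 0.908), and those of *Olfr1508* and *Olfr1509* were -0.31 ± 0.34 and -0.16 ± 0.25. No member passed, where 1.77% of ORs did (19, and 8 to 28 when single libraries were left out, with 8 without replicate 2 of the exposed mice). With 2,5-DMP the changes were -0.09 ± 0.24, -0.17 ± 0.28 and -0.15 ± 0.23 for *Olfr1507*, *Olfr1508* and *Olfr1509* (edgeR adjusted p = 0.991 for each), where 0.841% of 1070 ORs passed, that is, 9 ORs, or 17 with the replicate number as a block. With DHB they were 0.05 ± 0.27, -0.13 ± 0.32 and -0.07 ± 0.33 (edgeR adjusted p = 0.993 for each), where 0.564% of 1064 ORs passed.

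**Figure D5:**
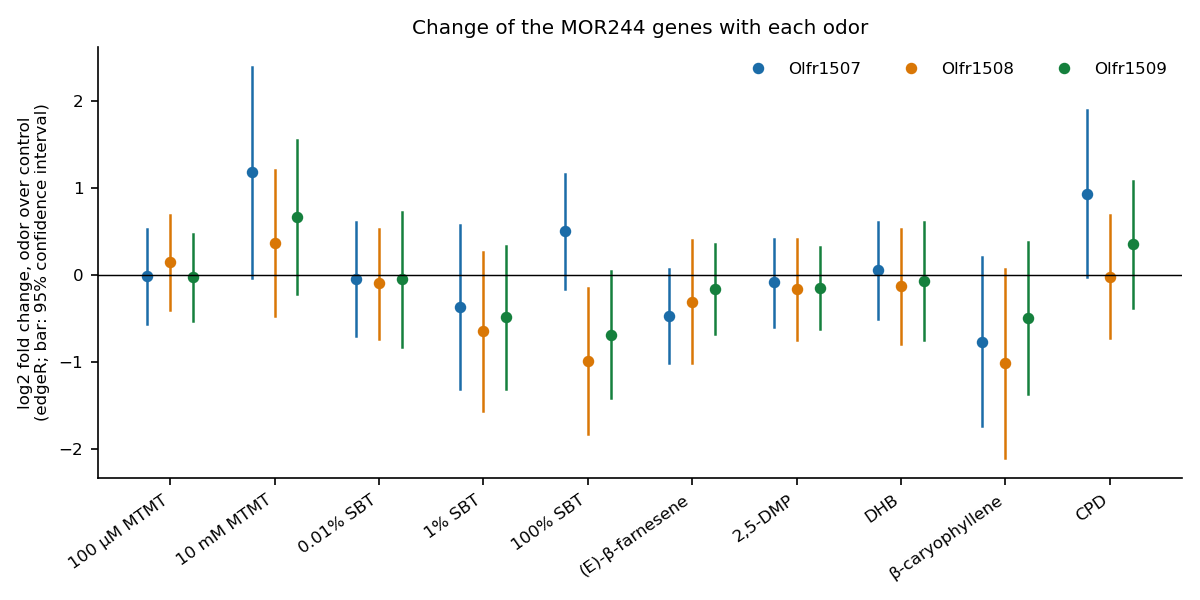
Log2 fold change of each MOR244 gene, odor over control (y axis), for the 10 comparisons (x axis), with the 95% confidence interval of edgeR's quasi-likelihood fit as a bar (n = 3 and 3 libraries). The interval of *Olfr1508* at 100% SBT lies below 0 (-1.83 to -0.15) before adjustment over all ORs, and the other 29 intervals hold 0.

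Over the 30 tests, 3 genes by 10 odors, none had an adjusted p under 0.05 in edgeR, and 1 had an unadjusted p under 0.05 (*Olfr1508* at 100% SBT). DESeq2 called none of them either. Over all ORs, 0.0% to 11.3% passed the edgeR test in a comparison, and at 100% SBT 222 of 1050 had an unadjusted p under 0.05. These counts therefore do not set the family apart from other ORs. The fold changes were positive in 8 tests and negative in 22, and comparisons with shared controls are not independent of each other. The median over all ORs lay between -0.08 and 0.03 in these comparisons, and the signs over all ORs were not counted.

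Over the 17 group means, *Olfr1508* and *Olfr1509* resembled each other more than either resembled *Olfr1507*. Pearson's r of log2 levels (reads per 100000 OR reads, 5 added) was 0.76 for *Olfr1508* and *Olfr1509*, 0.61 for *Olfr1507* and *Olfr1509*, and 0.56 for *Olfr1507* and *Olfr1508*. Within groups, the deviations of the 51 libraries from their group means had r = 0.67, 0.46 and 0.63 for the same pairs. These values describe points that share control mice, depth and composition, and the reads split between *Olfr1507* and *Olfr1508* enter the last of them.

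Among the 789 ORs with a mean of at least 20 reads per library, the pattern of *Olfr1509* over the 17 groups was most like that of *Olfr263* (r = 0.83), followed by *Olfr1359*, *Olfr318* and *Olfr524* (each 0.77) and by *Olfr1508* (0.76), where the median r was 0.16. Over the 51 single libraries *Olfr1508* came first (r = 0.71) and *Olfr263* next (0.66). *Olfr1508* was most like *Olfr1276* and *Olfr287* (each 0.79) and *Olfr1208* (0.77). *Olfr1507* was most like *Olfr1265* and *Olfr725* (each 0.91) and *Olfr1202* (0.85). For *Olfr1507* the nearest 3 were the same by Spearman's rho (0.89, 0.89 and 0.87). Over the 51 libraries they ranked 1, 3 and 7, with lower r (0.81, 0.77 and 0.68). All these values include the doubtful libraries. The choice of measure mattered more for the other members. By rho the first 3 ORs named for *Olfr1508* ranked 15, 12 and 10, and *Olfr263* ranked 9 for *Olfr1509*, and over the 51 libraries the 3 named for *Olfr1508* ranked 18, 7 and 23.

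The 3 ORs most like *Olfr1507* were chosen by their pattern over these same groups, so that their levels in the groups where *Olfr1507* was high are a description. *Olfr1265*, which is also the third nearest OR to *Olfr1509* by sequence (57.6%), took 0.0248%, 0.121% and 0.0923% in the 10 mM MTMT mice against 0.0484%, 0.0254% and 0.0537% in their controls, and 0.0313%, 0.209% and 0.0655% in the CPD mice against 0.0265%, 0.0348% and 0.0319%. *Olfr725* took 0.0321%, 0.176% and 0.111% at 10 mM MTMT against 0.031%, 0.0339% and 0.0457%, and 0.0478%, 0.151% and 0.0782% with CPD against 0.0907%, 0.0301% and 0.0478%. *Olfr1202* took 0.019%, 0.0505% and 0.0319% at 10 mM MTMT against 0.0291%, 0.00707% and 0.0517%, and 0.0165%, 0.0576% and 0.043% with CPD against 0.00189%, 0.0253% and 0.029%. Among the exposed mice each of them was highest in replicate 2 of both groups, some controls overlapped the exposed mice, and none of these changes passed the edgeR test.

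The other 5 ORs within 500 kb of the family, *Olfr221* and *Olfr1510* to *Olfr1513*, lie on the side of *Olfr1509* and took 0.0396% to 0.146% of OR reads in controls. None of them passed the test in any of the 10 comparisons. At 100% SBT their log2 fold changes ran from -0.98 to 0.24 (median -0.49, lowest edgeR adjusted p = 0.227), beside a median of -0.08 over all ORs, with 3 negative and 2 positive. At 100 μM MTMT they ran from -0.45 to 0.35. The 7 ORs nearest to the members by sequence likewise gave no call in 70 tests.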

How the data were processed

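Alignment by the authors was with STAR on GRCm38.p6, and RSEM gave the deposited expected counts of OR genes per library, which are not normalized and were rounded to whole numbers where needed. The tables also hold the authors' edgeR columns (log2 fold change, logCPM, likelihood ratio, p-value and FDR), which were not used. The 2-heptanone table was not used, as its 6 columns matched no sample title. Columns deposited in more than 1 table (9) held identical values.

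Counts were joined by gene symbol, and the share of OR reads is the percent that a gene took of its library's OR total. Tests of odor against control used edgeR 4.0.16 under R 4.3.3 (TMM factors over ORs, at least 10 reads over the libraries compared, glmQLFit and glmQLFTest, Benjamini-Hochberg adjustment over all ORs tested, threshold 0.05). SEs are the log2 fold change divided by the square root of F. Exact permutation tests were two-sided, and 3 against 3 allow no p below 0.1. SciPy 1.17.1 gave the exact tests and intervals. Ratios had 0.5 added to each count. DESeq2 1.42.0 and the other alternatives are listed in the closing section. The OR totals (27301 to 160001) limit the precision, and whole-library depth is not given in the sources used here.

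The labels number the mice 1 to 3 in each group, and the study's mice were litter matched, but nothing states that equal numbers mark a litter. Deviations of same-numbered libraries correlated at 0.02 to 0.39, above 0.1 for each number in 7 of 10 comparisons, and not in those of 100 μM MTMT, 10 mM MTMT and 0.01% SBT. In the experiments of CPD, 10 mM MTMT, DHB, and 1% and 100% SBT, replicate 3 also carries another title prefix than the others. There, number and prefix cannot be fully told apart. The tests given are without the replicate number as a block, whose effect is in the closing section, and the exact tests treated the mice as unpaired.

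Gene models came from GENCODE M21 and bases from the RefSeq GRCm38.p6 genome, whereas the authors counted on GENCODE M25 models, not used here. Protein identities are from global alignments of conceptual translations. The genes named are the 3 members, all ORs within 500 kb, *Olfr1295* as a reference responder, the 5 ORs most like *Olfr1509* and the 3 most like each other member, and the 3 nearest to each member by sequence. *Olfr541*, *Olfr545* and the *Olfr1183* to *Olfr1209* genes with both residues were named after their values were seen. The members, lists and tests were chosen with earlier results of these data known.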

Additional observations from a re-analysis of the deposited data

How the results depend on the processing

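Of the log2 fold changes and dose differences of the 3 members, 344 kept direction and side of the threshold when a setting other than the choice of libraries was changed, 8 turned direction and 2 passed the threshold; the causes were not tested. No member passed under DESeq2, the likelihood ratio test, DESeq2 size factors, either filter, the title prefix as a block or a single fit of all 51 libraries. *Olfr1508* at 100% SBT passed at -1.39 both with library totals and with the dominant OR left out of them. Small changes turned with library totals, to 0.01 (*Olfr1507*, 100 μM MTMT), -0.03 (*Olfr1508*, 10 mM MTMT), -0.05 (*Olfr1507*, DHB) and -0.19 (*Olfr1508*, 10 mM minus 100 μM MTMT), and with the dominant OR left out to 0.01, -0.07 and -0.15 for the first and the last pair of these. With the replicate block, *Olfr1509* with DHB turned to 0.06, and the number of ORs called went from 3 to 6 at 100 μM MTMT and from 9 to 17 with 2,5-DMP; the block changed no call of a member, and *Olfr1508* at 100% SBT was -1.03 with it (edgeR adjusted p = 0.0729).

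Other settings moved the numbers of ORs called. At 100 μM MTMT they were 5 with DESeq2, with library totals, with the dominant OR left out and with a minimum of 1 read, 7 with the likelihood ratio test, and 0 in the single fit of 51 libraries. At 10 mM MTMT they were 15 with DESeq2, 5 with the likelihood ratio test and 29 in the single fit. The likelihood ratio test called 15 for 1% SBT, 15 for 2,5-DMP and 1 for CPD, DESeq2 1 for CPD, and the single fit 28 for 1% SBT, 12 for (E)-β-farnesene and 1 for CPD. The mean share of *Olfr1509* at 100% SBT was 0.128% with TMM scaling, and that of *Olfr1508* in the β-caryophyllene controls 0.149% with the dominant OR left out.

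When single libraries were left out, 28 fold changes turned direction and 277 kept direction and side of the threshold. Of the log2 ratios, 25 turned and 155 kept direction. Their sizes could still shift, as for the fold change of *Olfr1507* at 10 mM MTMT (0.29 to 1.56). At 100 μM MTMT the ranges were -0.13 to 0.08 (*Olfr1507*), -0.09 to 0.48 (*Olfr1508*) and -0.22 to 0.13 (*Olfr1509*). At 0.01% SBT they were -0.23 to 0.23, -0.22 to 0.04 and -0.37 to 0.23, and with DHB -0.17 to 0.19, -0.46 to 0.19 and -0.42 to 0.32. *Olfr1508* ranged from -0.61 to 0.04 with (E)-β-farnesene, -0.4 to 0.16 with 2,5-DMP, -0.21 to 0.19 with CPD, -0.62 to 0.02 between 100% and 1% SBT, and -0.15 to 0.47 between the MTMT doses, where *Olfr1507* ranged from 0.28 to 1.54 and *Olfr1509* from 0.2 to 0.94. *Olfr1509* ranged from -0.07 to 0.3 in 100 μM MTMT against the other odors. *Olfr1507* between 100% and 1% SBT ranged from 0.64 to 1.41 and passed at the latter. The numbers of ORs called ranged from 1 to 5 (100 μM MTMT), 0 to 38 (10 mM MTMT, 38 without replicate 1 of the exposed mice), 3 to 5 (0.01% SBT), 0 to 8 (1% SBT, 0 without replicate 1 of the exposed mice), 8 to 28 ((E)-β-farnesene) and 0 to 1 (CPD).

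The log2 ratio of *Olfr1509* to *Olfr1507* ranged from -0.31 to 0.22 at 100 μM MTMT, -0.28 to 0.37 at 0.01% SBT, -0.24 to 0.34 at 1% SBT, -0.26 to 0.05 with 2,5-DMP and -0.59 to 0.59 with DHB. That of *Olfr1509* to *Olfr1508* ranged from -0.21 to 0.29, -0.14 to 0.46 and -0.27 to 0.22 at 0.01% SBT, with (E)-β-farnesene and with 2,5-DMP. That of *Olfr1508* to *Olfr1507* ranged from -0.19 to 0.13, -0.12 to 0.48 and -0.22 to 0.26 for the same odors and from -0.63 to 0.45 with DHB. With 3 libraries a group, and 27301 to 160001 OR reads each, changes as small as these could not be separated from 0.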
